A study of Mus musculus with 4 samples.

Results

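H19, Igf2 and 4 further imprinted genes of distal mouse chromosome 7, together with the receptor gene Igf2r on chromosome 17, were followed in prostate tissue (ventral and dorsal lobes) of FVB mice. They are 7 of the 23242 rows of the expression table, and all 7 have a row. They were chosen by name with their FPKM differences between the genotypes already known, so their levels and differences are given as a description and carry no test. Mice 26 and 29 were homozygous for a TMPRSS2:ERG transgene, in which a bacterial artificial chromosome holding the TMPRSS2 locus carries human ERG exons. ERG belongs to the ETS family of DNA-binding proteins. Mice 27 and 28 were wild type. Both groups share the FVB background and the same dissected lobes, and age is not stated in the labels. The homozygotes come from a single sub-line, which was derived by Cre protein injection from 1 line that carried GFP between loxP sites ahead of ERG.

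Imprinted genes are transcribed mainly from the maternal or mainly from the paternal chromosome. At the distal end of mouse chromosome 7, a differentially methylated region controls the maternally expressed noncoding RNA H19 and the paternally expressed growth factor gene Igf2, which share enhancers. A neighbouring region is controlled from the promoter of the paternally expressed noncoding RNA Kcnq1ot1, whose transcription silences in cis the maternally expressed genes Cdkn1c, Slc22a18 and Phlda2. H19 and Igf2 are abundant in the fetus and decline after birth in most mouse tissues. Igf2r encodes a receptor that takes IGF2 to the lysosome for degradation and sorts enzymes bearing mannose 6-phosphate, and the mouse gene is expressed from the maternal chromosome.

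RNA levels are given as scaled FPKM, the deposited fragments per kilobase of transcript relative to the size of the library, divided by a median-of-ratios factor for each library. FPKM is a value per length, so levels of different genes can be set side by side. Values for the 2 parental chromosomes are not separated in the table. Depth was estimated from the spacing of the lowest values, where 1 fragment was worth 0.0192 to 0.0221 FPKM in a transcript of 1 kb, a reading of a histogram and not a count. Of the 7 genes, 6 passed the filter of a mean of at least 1 scaled FPKM. H19 passed it only through the homozygotes.

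H19 (Entrez 14955) is listed on mm10 at chr7:142575532-142578146, and GENCODE places it on the minus strand, with 5 exons and 2286 exonic bases, as a long noncoding RNA. Its first exon holds the hairpin of the microRNA miR-675. The mature strands of miR-675 are printed because H19 is their host transcript, with those of miR-483, which lies in an intron of Igf2. RefSeq on GRCm38.p6 places miR-675-5p at chr7:142577112-142577133 and miR-483-5p at chr7:142654968-142654989, both on the minus strand. Capitals mark the seed, bases 2 to 8.
mmu-miR-675-5p: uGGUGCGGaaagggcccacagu
mmu-miR-675-3p: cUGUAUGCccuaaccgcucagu
mmu-miR-483-5p: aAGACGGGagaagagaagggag
mmu-miR-483-3p: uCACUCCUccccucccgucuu
The 4 seeds differ from each other, and each occurs in 1 of the 1738 mature microRNAs of the RefSeq table. The rows for the microRNA genes Mir675 and Mir483 are listed at 0 in all 4 libraries, so levels of the microRNAs were not measured here.

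H19 was the gene of the set with the widest separation between genotypes. It stood at 10.4 and 9.32 scaled FPKM in homozygote mice 26 and 29, against 0.143 and 0.172 scaled FPKM in wild-type mice 27 and 28. The homozygotes lay close together and far above both wild types. The means were 9.84 ± 0.738 scaled FPKM in homozygotes and 0.157 ± 0.0200 scaled FPKM in wild types (SD, n = 2 each), a ratio of 62.5. By the estimated depth and the exonic length, those levels correspond to roughly 1085 and 1157 fragments in the homozygotes and 13.7 and 18.3 fragments in the wild types, so the wild-type level and the ratio rest on few fragments. Ranked among all rows of its library, H19 was at percentile 77.0 and 75.3 in mice 26 and 29, against percentile 38.5 and 38.6 in mice 27 and 28. The log2 difference was 3.23 with a pseudocount of 1, rank 31 from the top among 11762 genes tested, and 5.27 with a pseudocount of 0.1. In the authors' deposited table the log2 fold of H19 is 5.95, and that of Igf2 is 0.85.

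Igf2 (Entrez 16002, chr7:142650768-142661035) encodes insulin-like growth factor 2, a growth factor that signals through the receptors Igf1r and Insr. It stood at 6.55 and 6.24 scaled FPKM in homozygote mice 26 and 29, against 2.95 and 4.13 scaled FPKM in wild-type mice 27 and 28. Both homozygotes were above both wild types, and the wild types differed from each other by a factor of 1.40. Means were 6.39 ± 0.219 scaled FPKM in homozygotes and 3.54 ± 0.836 scaled FPKM in wild types (SD, n = 2 each), a ratio of 1.81 and a log2 difference of 0.72. GENCODE annotates 5 basic transcripts of Igf2, and the table sums them, so use of its alternative promoters cannot be read. Its exons share 98 bases with the antisense gene Igf2os and 3596 bases with Gm49394, a GENCODE gene on the same strand. Reads of these genes may be split or joined in the value of Igf2.

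The balance of the pair therefore differed between genotypes. The level of H19 divided by that of Igf2 was 1.58 and 1.49 in homozygote mice 26 and 29, against 0.0486 and 0.0415 in wild-type mice 27 and 28. In both homozygotes the noncoding RNA was the more abundant of the pair per length, and in both wild types the growth factor transcript was.

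**Figure D1:**
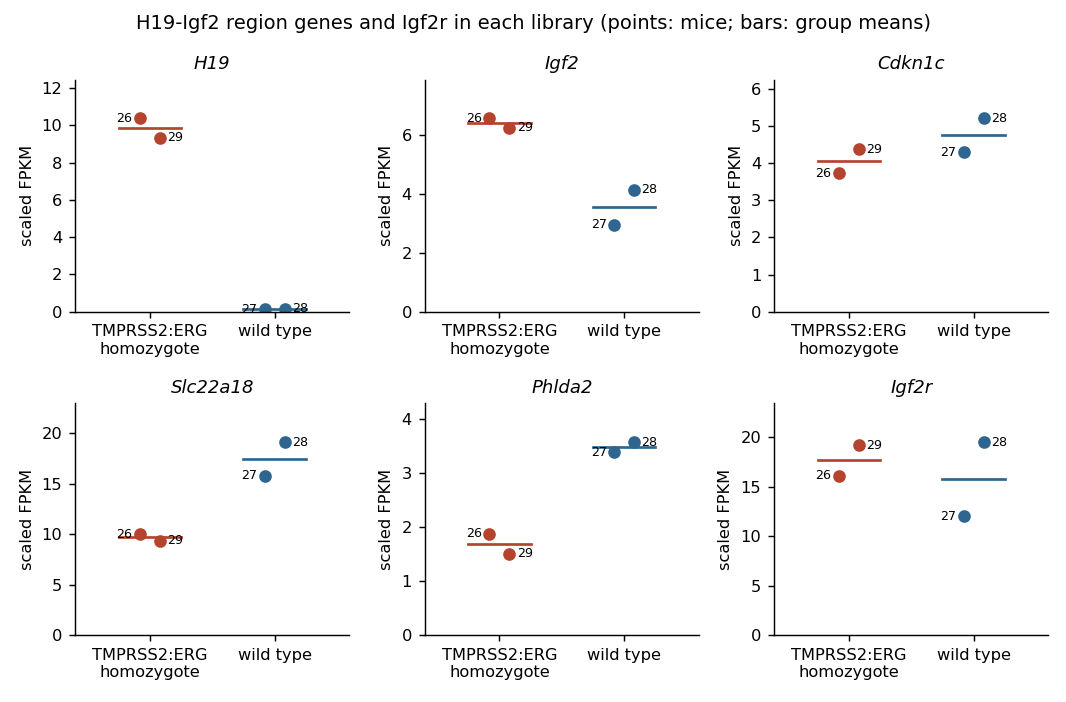
Scaled FPKM of 6 genes (vertical axes, each from 0) in TMPRSS2:ERG homozygotes (left) and wild types (right), with points for mice and bars for group means. H19 and Igf2 are higher in both homozygotes, Slc22a18 and Phlda2 are lower in both, and Cdkn1c and Igf2r overlap. Kcnq1ot1 is listed at 0 in all 4 libraries and is not drawn.

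Of the genes silenced in cis by Kcnq1ot1, Slc22a18 and Phlda2 were lower in the homozygotes. They are neighbours, with 2.21 kb between them. Slc22a18 (Entrez 18400, chr7:143473755-143499332) encodes a membrane transporter of the organic cation family. It stood at 10.003 and 9.36 scaled FPKM in homozygote mice 26 and 29, against 15.8 and 19.1 scaled FPKM in wild-type mice 27 and 28. Both homozygotes lay below both wild types, with means of 9.68 ± 0.458 scaled FPKM in homozygotes and 17.4 ± 2.37 scaled FPKM in wild types (SD, n = 2 each). The ratio was 0.555 and the log2 difference -0.78.

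Phlda2 (Entrez 22113, chr7:143501548-143502524) encodes a small pleckstrin homology domain protein that limits placental growth in the mouse. It stood at 1.88 and 1.51 scaled FPKM in homozygote mice 26 and 29, against 3.39 and 3.57 scaled FPKM in wild-type mice 27 and 28. Both homozygotes were again below both wild types. The means were 1.70 ± 0.262 scaled FPKM in homozygotes and 3.48 ± 0.131 scaled FPKM in wild types (SD, n = 2 each), a ratio of 0.488. The log2 difference was -0.73 with a pseudocount of 1 and -1.001 with a pseudocount of 0.1. The level of Phlda2 relative to that of Slc22a18 was 0.188 and 0.162 in homozygotes and 0.215 and 0.187 in wild types, and the groups overlapped in this proportion.

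Because these neighbours were lower together, their promoters are printed, from 250 bases before to 50 bases after the start, from RefSeq on GRCm38.p6. That of Phlda2 is on the minus strand at chr7:143502475-143502774 and that of Slc22a18 on the plus strand at chr7:143473539-143473838. Capitals mark matches to the TATA box (TATAAA), the GC box (GGGCGG) and CCGGAAG, a sequence that ETS factors bind, searched on both strands. Shorter sequences that hold only part of it were not searched for.
Phlda2: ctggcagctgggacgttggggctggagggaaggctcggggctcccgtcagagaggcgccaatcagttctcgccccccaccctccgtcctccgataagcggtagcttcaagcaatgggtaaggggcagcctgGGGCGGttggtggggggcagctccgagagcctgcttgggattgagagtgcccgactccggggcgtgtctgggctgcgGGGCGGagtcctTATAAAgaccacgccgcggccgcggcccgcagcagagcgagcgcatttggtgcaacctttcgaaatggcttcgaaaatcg
Slc22a18: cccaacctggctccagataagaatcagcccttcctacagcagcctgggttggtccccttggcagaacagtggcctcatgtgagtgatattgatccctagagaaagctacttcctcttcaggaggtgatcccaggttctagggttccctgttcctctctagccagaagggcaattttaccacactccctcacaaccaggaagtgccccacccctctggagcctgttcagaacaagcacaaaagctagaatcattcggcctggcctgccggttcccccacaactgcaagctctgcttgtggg
In the Phlda2 promoter a TATA box begins 30 bases before the start, and GC boxes begin 119 and 42 bases before it, with no overlap between them. The Slc22a18 window holds none of these 3 strings of letters, which says nothing about other forms of the motifs or about the factors. Among the 32851 RefSeq promoters of this length, 13.6% hold the TATA box, 35.7% the GC box and 8.86% CCGGAAG. Phlda2 has 26 CpG dinucleotides in the window and Slc22a18 has 2, where the median promoter has 7. Promoters were matched for 5 of the 7 genes, all but H19 and Cdkn1c.

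Cdkn1c (Entrez 12577, chr7:143458339-143461050), which encodes the cyclin-dependent kinase inhibitor p57, lies 12.7 kb from Slc22a18 and did not separate the genotypes. It stood at 3.73 and 4.37 scaled FPKM in homozygote mice 26 and 29, against 4.28 and 5.20 scaled FPKM in wild-type mice 27 and 28. The groups overlapped, since mouse 29 was above mouse 27. The means were 4.05 ± 0.452 scaled FPKM in homozygotes and 4.74 ± 0.649 scaled FPKM in wild types (SD, n = 2 each), and the log2 difference was -0.18. Relative to Phlda2, Cdkn1c was at 1.98 and 2.89 in homozygotes against 1.27 and 1.46 in wild types. Its exons share 589 bases with an antisense gene of GENCODE.

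Kcnq1ot1 (Entrez 63830, chr7:143213111-143296547) is listed at 0 in all 4 libraries. The table lists 5308 rows at 0 in every library, and a 0 there can be a failed estimate. R74862, another row of the region, is listed at 0 throughout as well, although its log2 fold in the authors' deposited table is 0.27. GENCODE annotates Kcnq1ot1 as 1 unspliced exon on the strand opposite to Kcnq1, with 1 of the 18 distinct Kcnq1 exons inside its span. Nothing about the noncoding RNA that silences this cluster can therefore be read from the table.

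Igf2r (Entrez 16004, chr17:12682406-12769706) stood at 16.1 and 19.2 scaled FPKM in homozygote mice 26 and 29, against 12.0 and 19.5 scaled FPKM in wild-type mice 27 and 28. The groups overlapped: the wild types lay on either side of the homozygotes. The means were 17.6 ± 2.18 scaled FPKM in homozygotes and 15.7 ± 5.30 scaled FPKM in wild types (SD, n = 2 each). The log2 difference was 0.19, and it was -0.14 without mouse 27. The ratio of Igf2 to Igf2r, ligand transcript to clearance receptor transcript, was 0.407 and 0.325 in homozygotes against 0.246 and 0.212 in wild types.

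Across the set, the order of levels differed between genotypes. In homozygotes Igf2r was highest, H19 and Slc22a18 followed with overlapping values, and then came Igf2, Cdkn1c and Phlda2, with no overlap between neighbours in the order. In wild types Slc22a18 and Igf2r overlapped at the top, Cdkn1c lay just above Igf2, Phlda2 fell within the range of Igf2, and H19 was lowest above 0. Of the 6 genes that passed the filter, 2 had both homozygotes above both wild types and 2 had both below, where 25.3% and 25.8% of all 11762 genes tested did so. The genes were chosen with this contrast known, and nothing is read from that count.

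Across the whole table, 900 of 11762 genes tested passed an adjusted p of 0.05 in limma, which is 7.65%, with 4.65% higher and 3.00% lower in homozygotes. Without scaling, 73.0% of the calls were higher, against 60.8% with it. Leaving out a homozygote gave 382 calls (mouse 26) or 480 calls (mouse 29). Leaving out a wild type gave 2058 (mouse 27) or 1752 (mouse 28), and testing all rows with no filter on low values gave 126. Summed levels of the marker lists bear on the makeup of the tissue. Luminal epithelial markers, the cell type that defines prostate lobes, summed to 1769 and 1850 scaled FPKM in homozygotes and 1783 and 1767 scaled FPKM in wild types. Seminal vesicle markers without a missing value, 7 of 10, summed to 4349 and 8181 scaled FPKM in homozygotes against 40572 and 11010 scaled FPKM in wild types. Most of the homozygote sums was Pate4, at 4318 and 8148 scaled FPKM in homozygotes against 15870 and 9904 in wild types, which did not pass. Of these 7 markers, 5 fell (Svs1, Svs3a, Svs3b, Svs6 and Sva), and the median log2 difference was -7.16. The wild types differed widely in these 5, as in Svs6 at 12079 and 455 scaled FPKM in mice 27 and 28. All 5 calls were lost with a robust trend (limma adjusted p from 0.164 to 0.249). The part of these tissues and cell types in the levels of the imprinted genes was not tested. In bulk tissue, a change in the share of a cell type and a change in RNA per cell cannot be told apart.

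The rest of the chromosome 7 region was then examined, to see whether the neighbours of these genes moved as well. From Mob2 to Mir3470b, a window of about 2 Mb, the table holds 40 other rows, of which 16 were tested. Only Kcnq1, a voltage-gated potassium channel gene whose span holds Kcnq1ot1, rose, and none fell, so 6.25% were called against 7.65% of all genes. Whether Kcnq1 is imprinted in this tissue was not measured. Kcnq1 stood at 24.9 and 25.2 scaled FPKM in homozygotes against 10.8 and 15.6 scaled FPKM in wild types, a log2 difference of 0.90 (SE 0.174, limma adjusted p = 0.0395). Its direction was thus opposite to that of Slc22a18 and Phlda2, and its level relative to Slc22a18 was 2.49 and 2.69 in homozygotes against 0.687 and 0.814 in wild types. Kcnq1 did not pass when mouse 26 (limma adjusted p = 0.123) or mouse 29 (0.117) was left out, when FPKM was not scaled (0.0792), or after quantile normalization (0.0502). The region had 0 calls without either homozygote, 3 without mouse 27 and 2 without mouse 28.

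Over the 16 tested neighbours, Kcnq1 included, the median log2 difference was 0.04, against -0.003 over all genes tested. Ctsd, a lysosomal protease gene on the H19 side of the region, had a log2 difference of 0.39 and did not pass (limma adjusted p = 0.268). Cd81, a tetraspanin gene whose imprinting is known from the placenta, had 0.32 and did not pass either (0.254). Mrpl23, next to H19, was at 21.3 and 19.5 scaled FPKM in homozygotes and 27.97 and 19.8 in wild types, with overlapping groups. The lowest value was that of Th, the tyrosine hydroxylase gene, at -1.10 (limma adjusted p = 0.422), which rested on 1 wild type: it stood at 0.763 and 0.490 scaled FPKM in homozygotes against 0.660 and 6.23 scaled FPKM in mice 27 and 28. Ascl2, Tspan32 and the insulin gene Ins2 were under the filter.

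**Figure D2:**
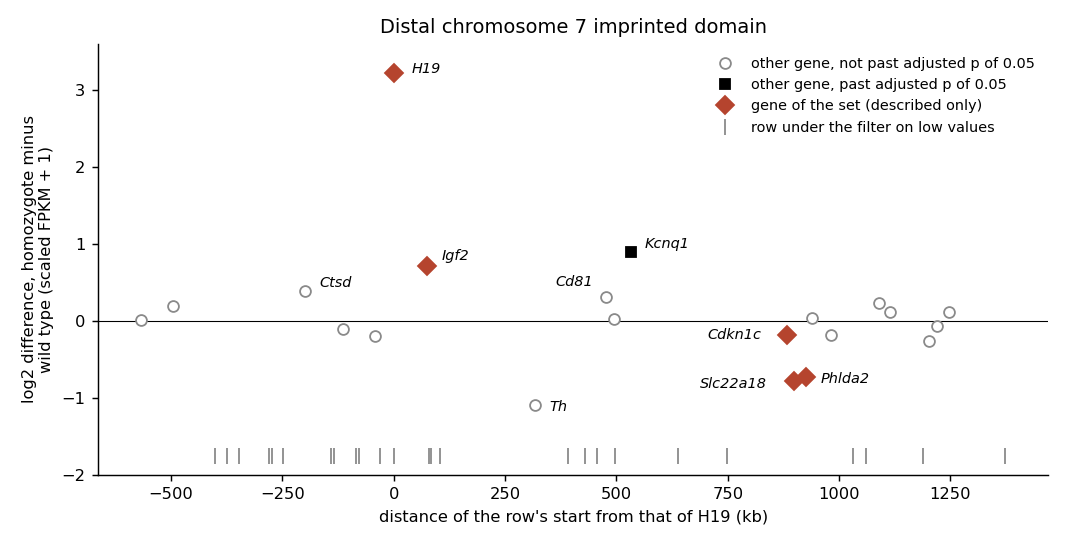
Log2 difference between homozygotes and wild types (vertical axis, scaled FPKM + 1) against distance from the start of H19 in kb (horizontal axis), with diamonds for the genes of the set, a square for Kcnq1, which passed an adjusted p of 0.05, and circles for genes that did not. H19 stands apart at 3.23, and ticks at the foot mark rows under the filter.

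Around Igf2r on chromosome 17, 29 other rows start within 1 Mb and 10 were tested. The acyltransferase gene Agpat4 rose, with 12.6 and 12.0 scaled FPKM in homozygotes against 2.28 and 2.74 scaled FPKM in wild types (log2 difference 1.92, SE 0.119, limma adjusted p = 0.00102), and no gene fell. The share called was 10% against 7.65% of all genes. The call of Agpat4 was lost only with no filter on low values (0.0618). Airn, the paternally expressed noncoding RNA that silences Igf2r in cis in the mouse, stood at 4.41 and 5.12 scaled FPKM in homozygotes against 3.51 and 3.64 scaled FPKM in wild types. Its log2 difference of 0.33 did not pass (limma adjusted p = 0.188). Slc22a3, an organic cation transporter gene of that cluster, had -0.12 and did not pass either. The median over the 10 was 0.03.

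Other imprinted genes were listed to see how general the pattern was. The list of 74 names matched 69 rows and 41 were tested, of which 5 rose and 2 fell, or 17.1% called against 7.65% of all genes. All 5 that rose lie in the Dlk1-Meg3 region of chromosome 12. Like H19, these 5 passed the filter only through the homozygotes, with wild-type means below 1 scaled FPKM, so nothing is read from the share called. Nothing is read from their calls either, and their values are given as a description. In that region Dlk1, encoding a Notch-related membrane protein, stood at 774 and 735 scaled FPKM in homozygotes against 0.595 and 0.512 scaled FPKM in wild types (log2 difference 8.93). The log2 differences of the noncoding RNAs Rian (5.17), Meg3 (3.65) and Mirg (1.59) and of the retrotransposon-derived gene Rtl1 (2.19) were positive as well. Rian and Meg3 were above 6 scaled FPKM in both homozygotes and below 1 in both wild types, as H19 was. Meg3 varied more than H19 among homozygotes, at 6.83 and 28.04 scaled FPKM in mice 26 and 29, against 0.241 and 0.171 in mice 27 and 28.

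Elsewhere 36 imprinted genes were tested, none rose and 2 fell, and their median log2 difference was -0.05. Over all genes tested 4.65% rose and 3.00% fell, and nothing is read from this count. Rasgrf1, an exchange factor gene expressed from the paternal chromosome, had a log2 difference of -1.56 (SE 0.208, limma adjusted p = 0.0123), with 0.722 and 1.26 scaled FPKM in homozygotes against 3.99 and 5.77 in wild types. Snrpn, a splicing factor gene, fell by 0.54 (SE 0.112, limma adjusted p = 0.0486), and did not pass when mouse 26 (0.231) or mouse 29 (0.363) was left out or when FPKM was not scaled (0.0838). Plagl1, a zinc finger gene whose product is reported to activate H19, Igf2 and Cdkn1c in the mouse, had 0.47 and did not pass (limma adjusted p = 0.149). Mest had 0.71 (0.159), Grb10 -0.43 (0.194), Nnat -0.51 (0.220) and Gnas 0.09 (0.828), and none of these passed. The list had 19 calls without mouse 27 and 14 without mouse 28, and Meg3 did not pass with a robust trend (0.134). Mirg was under the filter, and so not tested, when mouse 26 or mouse 29 was left out.

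**Figure D3:**
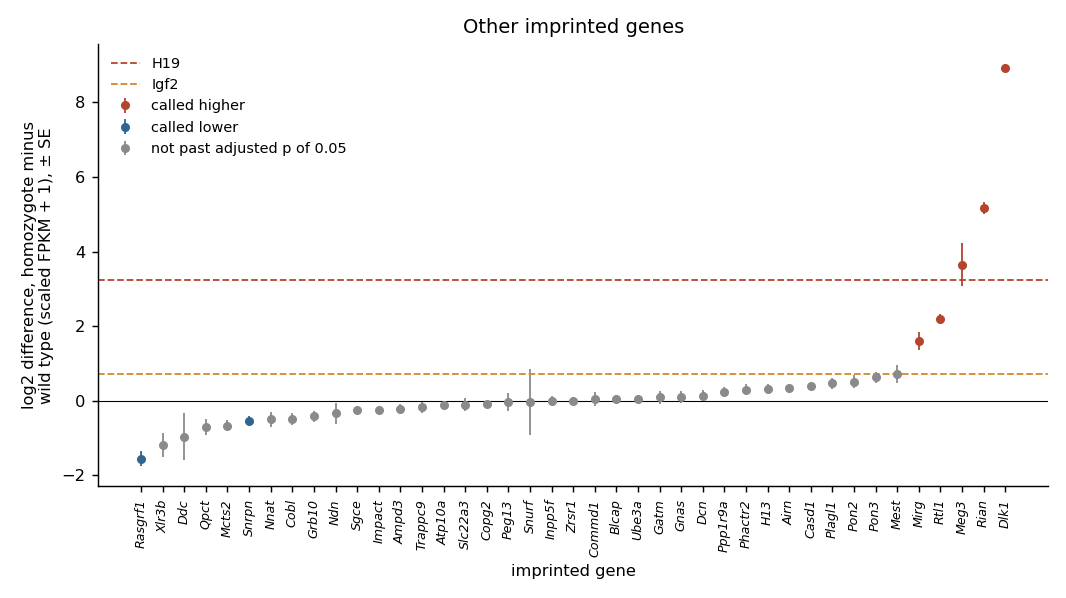
Log2 difference ± SE of 41 other imprinted genes (horizontal axis, sorted; vertical axis, scaled FPKM + 1), coloured by call, with dashed lines at the differences of H19 and Igf2. The 5 genes of the Dlk1-Meg3 region are the only ones called higher, and they passed the filter only through the homozygotes. Rasgrf1 is the lowest.

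The other genes of the insulin-like growth factor system were followed from ligands to effectors. Among other ligands and receptors, 0 of 3 tested genes passed in limma and 1 had an unadjusted p under 0.05, Igf1r. That gene, the signalling receptor for IGF1 and IGF2 and a reported target of miR-675 in the mouse placenta, stood at 3.48 and 4.55 scaled FPKM in homozygotes against 5.31 and 9.29 scaled FPKM in wild types. Its log2 difference was -0.69 (SE 0.252, limma adjusted p = 0.194). Insr, the insulin receptor gene, had -0.34 (SE 0.194, limma adjusted p = 0.400). The authors' deposited q-value called 1 of the 3, and 2 were called without mouse 27. Igf1 stood at 5.87 and 4.79 scaled FPKM in homozygotes against 4.34 and 5.16 in wild types, with overlapping groups. Igf2 was thus above Igf1 per length in both homozygotes, with ratios of 1.12 and 1.302, and below it in both wild types, at 0.680 and 0.800.

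Among binding proteins and the proteases and inhibitors that act on them, 1 of 10 tested genes rose and 2 fell, or 30% called against 7.65% of all genes. Earlier results of these data were known when the list was chosen, so nothing is read from that share. Igfbp2, a secreted binding protein with a preference for IGF2, stood at 32.6 and 44.1 scaled FPKM in homozygotes against 92.6 and 106 scaled FPKM in wild types (log2 difference -1.37, SE 0.175, limma adjusted p = 0.0109). Pappa2, a protease that cleaves binding proteins, fell by 0.79 (SE 0.121, limma adjusted p = 0.0191). Igfbp7, a low-affinity binding protein of the extracellular matrix, rose by 1.04 (SE 0.141, limma adjusted p = 0.0131), with 238 and 224 scaled FPKM in homozygotes against 104 and 122 in wild types. Igfbp3, Igfbp4 and Igfbp5 had log2 differences of 0.10, 0.06 and 0.04 and did not pass. Only the call of Igfbp2 held without mouse 26 and without mouse 29, when 1 gene was called each time, and 5 were called without mouse 28.

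In the signalling chain behind the receptors, 1 of 20 tested genes passed, or 5% against 7.65% of all genes, and nothing is read from that share. Eif4ebp1, the translation repressor that mTOR inactivates by phosphorylation, stood at 46.7 and 40.2 scaled FPKM in homozygotes against 86.4 and 93.3 scaled FPKM in wild types (log2 difference -1.03, SE 0.126, limma adjusted p = 0.00917). That call was lost without mouse 29 (0.0638), when 0 genes were called, and 3 were called without mouse 27 and 2 without mouse 28. The kinase and adaptor genes Akt1 (0.22), Pik3ca (0.26) and Irs1 (-0.06) did not pass. The RNA-binding protein genes Igf2bp1, Igf2bp2 and Igf2bp3, whose products bind Igf2 and H19 RNA, were all under the filter.

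Lysosomal genes were followed because Igf2r is also a sorting receptor. Of 25 tested, 8 rose and none fell, or 32.0% called against 7.65% of all genes, and the median log2 difference was 0.39 against -0.003. This list was chosen with earlier results of these data known, so nothing is read from that share or median. The protease gene Ctsh was highest at 1.15 (SE 0.113, limma adjusted p = 0.00448), with 68.2 and 61.4 scaled FPKM in homozygotes against 27.8 and 29.6 scaled FPKM in wild types. Hexosaminidase subunit Hexa rose by 1.01 (SE 0.126) and mannosidase Man2b1 by 0.93 (SE 0.0997). M6pr, the other mannose 6-phosphate receptor gene, had -0.08 and did not pass (limma adjusted p = 0.762). The phosphotransferase subunit gene Gnptab, which helps to make the mannose 6-phosphate tag, had -0.02. The list had 1 call, Ctsh, without mouse 26 and 4 without mouse 29. Markers of macrophages, a lysosome-rich cell type, summed to 71.3 and 60.8 scaled FPKM in homozygotes against 70.0 and 49.6 in wild types, none of the 8 was called or at 0 in all libraries, and their part in the result was not tested.

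**Figure D4:**
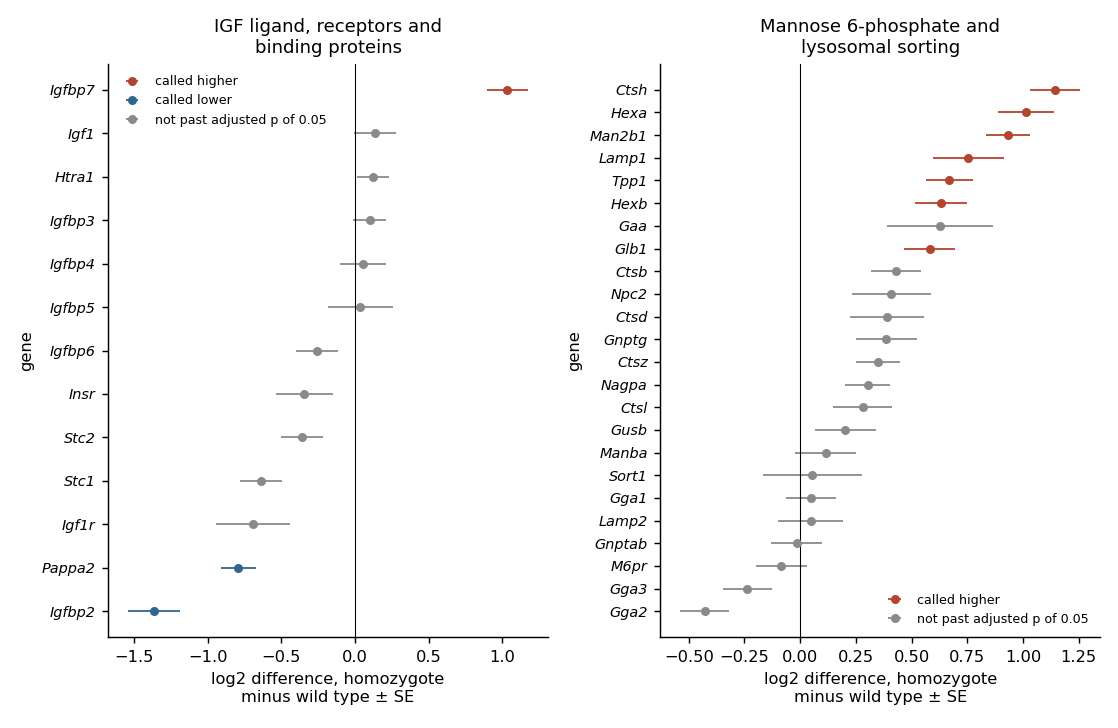
Log2 difference ± SE (horizontal axes) of tested ligand, receptor and binding protein genes of the insulin-like growth factor system (left) and of mannose 6-phosphate and lysosomal sorting (right), 1 gene per row, coloured by call. Igfbp7 rose and Igfbp2 and Pappa2 fell on the left, and 7 of the 24 genes drawn on the right rose.

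Of 22 tested factors known to set or read imprints, 1 rose and none fell. This is 4.55% called against 7.65% of all genes, with a median log2 difference of 0.01 against -0.003, and the count is not read as a result about these factors. The gene that rose was Ezh2, the histone methyltransferase of Polycomb repressive complex 2, which is recruited to the Kcnq1ot1 domain in mouse placenta. It stood at 7.01 and 6.51 scaled FPKM in homozygotes against 2.85 and 2.87 scaled FPKM in wild types (log2 difference 1.01, SE 0.109, limma adjusted p = 0.00631). Without mouse 26 its call was lost (0.0505), and 2 genes were called without mouse 28. Ctcf, whose product binds the unmethylated H19 control region as an insulator, had -0.01 (limma adjusted p = 0.981). The maintenance methyltransferase gene Dnmt1 had 0.13 (0.740), Trim28 -0.11 (0.743) and Rad21 0.21 (0.333). Zfp57, Uhrf1, Dnmt3b and Dnmt3l were under the filter.

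Around the kinase inhibitor Cdkn1c, the cell cycle list had 1 of 16 tested genes rise and 3 fall, or 25% called against 7.65% of all genes. It too was chosen with earlier results of these data known, so nothing is read from that share. The related inhibitors of the same family did not pass, Cdkn1a at -0.02 and Cdkn1b at 0.23. Cdkn2c, an inhibitor of CDK4 and CDK6, fell by 0.89 (SE 0.107, limma adjusted p = 0.00910). The D-type cyclin gene Ccnd2 stood at 4.34 and 4.13 scaled FPKM in homozygotes against 13.4 and 18.97 in wild types (log2 difference -1.69, SE 0.174, limma adjusted p = 0.00521), Ccnd1 fell by 0.70 (SE 0.110) and Ccnd3 rose by 0.55 (SE 0.105). Without mouse 26 only Ccnd2 was called, and without mouse 29 only Ccnd2 and Cdkn2c were. The proliferation markers Mki67 and Top2a were under the filter and not tested. At these low levels both homozygotes were above both wild types. Mki67 was at 0.284 and 0.313 scaled FPKM in homozygotes against 0.117 and 0.210 in wild types. Top2a was at 1.01 and 1.00 against 0.812 and 0.936. Pcna, which was tested, overlapped between the groups and did not pass.

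The genes whose profiles over the 4 libraries lay nearest to those of H19 and Igf2 were found by Euclidean distance of log2 values after taking off each gene's mean, as a description. Nearest to H19 was Tcn2, the vitamin B12 carrier transcobalamin gene (distance 0.129), at 981 and 805 scaled FPKM in homozygotes against 94.0 and 102 in wild types. Next came Mcpt2 (0.180), a mast cell protease gene listed at 0 in both wild types, then Ppic (0.219), Endou (0.244) and Olfml3 (0.264). These distances include the pseudocount of 1, which shrinks the difference of a gene as low in wild types as H19. With it the log2 difference was 3.23 for H19 and 3.17 for Tcn2. Without it the log2 ratio of means of H19 was 5.97, so nearness here does not mean an equal fold change. The nearest to Igf2 were Hs3st3a1 (0.0288), Serinc5 (0.0290), Pigt (0.0451), Nt5c1a (0.0464) and Trim62 (0.0547). None of the 10 lies on chromosome 7.

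Markers of cell types that could carry H19 or Igf2 RNA were summed beside these results. Fibroblast markers summed to 345 and 286 scaled FPKM in homozygotes and 292 and 312 scaled FPKM in wild types, with overlap, and none of the 8 was called. Smooth muscle markers summed to 1327 and 1563 in homozygotes against 2715 and 1858 scaled FPKM in wild types, lower in both homozygotes. None of the 8 was called, but all 8 had both homozygotes below both wild types, as 25.8% of all genes tested did. Their median log2 difference was -0.58. Skeletal muscle markers, from a tissue in which H19 persists in the adult mouse, summed to 106 and 125 in homozygotes against 199 and 127 scaled FPKM in wild types. Most of each sum was Acta1, at 95.0 and 113 in homozygotes against 184 and 112 scaled FPKM in wild types. Of the 8 skeletal muscle markers 3 were tested and none was called, so the sums say little about this tissue. Endothelial markers summed to 35.2 and 38.1 in homozygotes against 42.7 and 44.3 scaled FPKM in wild types. Of these 8, none was called and 6 had both homozygotes below both wild types, with a median log2 difference of -0.22 over the list. Adipocyte markers summed to 285 and 230 in homozygotes and 353 and 248 scaled FPKM in wild types, with overlap. Basal epithelial markers summed to 239 and 202 in homozygotes and 121 and 251 scaled FPKM in wild types, with overlap. No marker of any list was at 0 in all libraries, no list had a sum that was higher in both homozygotes as H19 was, and the part of these cell types in the levels of H19 and Igf2 was not tested.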

How the data were processed

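RNA was sequenced from prostate tissue of 4 FVB mice, 2 per genotype, grouped by the labels. Each library has its own mouse, so p-values rest in part on the spread between 2 animals per group. In limma each gene's variance is also drawn towards that of genes of similar level, with 3.62 prior degrees of freedom. The deposited table holds FPKM values from the authors, with a column for each mouse and 23242 rows, and this unit was inferred from the numbers. TopHat 1.3, Cufflinks 1.3 and build mm10 are listed in the submitters' processing notes, while annotation and use of strand are not stated there. Per the file headers, the authors' deposited table also has a log2 fold, a p-value and a q-value. The deposited fold is treated as a score, since the authors left codes for infinity in it.

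The top value, 99999, occurs in 7 rows and was read as a code and treated as missing. Starts were raised by 1. Values were divided by median-of-ratios factors over 11080 genes (1.01, 1.04, 0.921 and 1.03 for mice 26, 29, 27 and 28). The filter was a mean scaled FPKM of 1 or more, and log2(scaled FPKM + 1) was fitted across all 11762 genes with limma 3.58.1 in R 4.3.3 (trend, two-sided, Benjamini-Hochberg, threshold 0.05, 2 residual degrees of freedom). The step was tested on simulated data. Fold changes on that scale understate the change of low genes. Count tests were not run on FPKM. Depth is an estimate from low values of genes with 1 annotated transcript, in bins of 0.2 on the log2 scale, and the number of fragments per gene uses GENCODE exonic lengths.

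The 7 genes, the gene lists and the tests were chosen with earlier results of these data known. Named genes are the 7, up to 8 called neighbours of each region, up to 4 called genes per list with the largest moderated statistic (2 where none was called), and the 5 nearest profiles to H19 and to Igf2. Some genes of the lists, included in every count, are not reported here by name or drawn. All other names were picked for a known role or with their values in view. The fit was repeated with a robust trend, on FPKM without scaling, after quantile normalization, with 0.1 as pseudocount, with the filter removed or raised to a mean of 5, and without each library in turn, and the authors' deposited q-value was counted.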

Additional observations from a re-analysis of the deposited data

How the results depend on the processing

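The log2 differences of the 6 genes that passed the filter kept their sign under every scaling, pseudocount and left-out library tried and in the authors' deposited folds, except that of Igf2r, which ran from -0.14 to 0.52. That of H19 ran from 3.16 to 5.95, Igf2 from 0.53 to 0.90, Cdkn1c from -0.30 to -0.07, Phlda2 from -1.001 to -0.64 and Slc22a18 from -0.91 to -0.65. In H19, Igf2, Phlda2 and Slc22a18 the groups did not overlap, so no left-out library or pseudocount could reverse the sign. Nothing is read from the kept sign of these genes under those settings.

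Counts of calls depended more on the processing, and the cause was not tested. With no filter on low values, 126 genes were called in all, 3 other imprinted genes and 1 lysosomal gene, and 0 in the chromosome 7 region, near Igf2r, among binding proteins, in IGF signalling and in the cell cycle list. A minimum mean of 5 gave 4 imprinted genes and 0 imprint regulators. Unscaled FPKM and quantile normalization each gave 0 in the chromosome 7 region. The authors' deposited q-value gave 1607 calls among the tested genes, 2 in the chromosome 7 region, 13 imprinted genes, 1 ligand or receptor, 3 in IGF signalling and 2 imprint regulators. With 1 library left out, calls ran from 382 to 2058 in all, 0 to 3 in the chromosome 7 region, 5 to 19 for imprinted genes, 0 to 2 for ligands and receptors, 1 to 5 for binding proteins, 0 to 3 in IGF signalling, 1 to 10 for lysosomal genes, 0 to 2 for imprint regulators and 1 to 5 in the cell cycle list. The lone library of a group is then assumed to vary like the other group. No paired analysis was possible because the groups share no mouse number. With 2 animals per genotype, 2 residual degrees of freedom limit every call.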

Other observations

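Th, the tyrosine hydroxylase gene of the chromosome 7 region, and Ddc, an imprinted gene next to Grb10 that encodes the aromatic amino acid decarboxylase, were each high in wild-type mouse 28 alone. Th was at 0.763 and 0.490 scaled FPKM in homozygotes against 0.660 and 6.23 scaled FPKM in mice 27 and 28. Ddc was at 1.27 and 0.666 scaled FPKM in homozygotes against 0.861 and 6.77 scaled FPKM in mice 27 and 28. Neither passed in limma (adjusted p = 0.422 and 0.478). Mouse 28 also stood above the other libraries in Ngfr, a nerve growth factor receptor gene. Ngfr was at 3.99 and 3.21 scaled FPKM in homozygotes against 2.57 and 17.2 scaled FPKM in mice 27 and 28. Whether these genes share a source in the tissue of mouse 28 was not tested. These genes were named after their values were seen.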
